A study of Danio rerio with 3 samples.

Results

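The genes mitfa, dct, tyr, tyrp1b, gch2 and kita mark or build zebrafish pigment cells, and their levels were read in RNA from sorted blood-cell reporter populations. They were chosen by name, with earlier results of these data known. All 6 of 6 were found among the 14428 genes of the expression table. RNA came from embryos at 72 hours post fertilization from a cross of mpeg1:mCherry and mpx:EGFP fish, called wild-type and given no treatment. About 1000 embryos carrying both transgenes were pooled and dissociated, and more than 50000 cells were sorted for each of 3 populations. These were cells positive for mCherry only, cells positive for EGFP only, and double-negative cells with neither colour. The mpeg1 promoter drives mCherry in macrophages and the mpx promoter drives EGFP in neutrophils. The double-negative population is therefore a mixture of the embryo's other cells and not 1 cell type. Each population gave 1 library from the same pool, so the values have no replicate error and no difference was tested.

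Zebrafish pigment cells arise from the neural crest as black melanophores, yellow xanthophores and reflective iridophores. Melanophores make melanin inside melanosomes, with the enzymes tyrosinase (tyr), dopachrome tautomerase (dct) and tyrosinase-related protein 1 (tyrp1b). The transcription factor mitfa is required for melanophores to form, and the receptor tyrosine kinase kita is needed for their migration and survival. The GTP cyclohydrolase gene gch2 acts at the start of pteridine synthesis and marks xanthophores and their precursors. Melanin enzymes are also made in the retinal pigment epithelium, a layer of the eye that does not come from the neural crest. Neither reporter was designed to label pigmented tissue.

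The endogenous reporter genes were highest in the matching libraries: mpeg1 was at 1396 FPKM in mCherry+ cells and 9.92 in EGFP+ cells, and mpx at 12480 in EGFP+ cells and 55.8 in mCherry+ cells. FPKM counts sequenced fragments per transcript length and per library size, so levels of different genes can be set side by side within a library. The 16 measured macrophage markers summed to 9925 FPKM in mCherry+ cells, 974 in EGFP+ cells and 24.7 in double-negative cells, and the cathepsin gene ctssb.1 alone gave 783 of the EGFP+ sum, where the median marker was at 3.07. The 12 measured neutrophil markers summed to 43395 FPKM in EGFP+ cells, 1283 in mCherry+ cells and 206 in double-negative cells, where s100a10b alone gave 151. None of these markers was listed at 0 in any library. FPKM sums over all genes ran from 356886 in the double-negative library to 696949 in the EGFP+ library, and read depth is unknown. A value of 0 is given only as listed at 0, because psmd7, a proteasome gene that every cell uses, was at 0 in each library.

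Transcripts of all 6 pigment cell genes were listed above 0 in all 3 libraries, including the macrophage and neutrophil reporter cells. Most genes were: of 14428, only 1875 were listed at 0 in mCherry+, 2004 in EGFP+ and 1351 in double-negative cells. The summed level of the 6 genes was 138 FPKM in double-negative cells, 73.9 in mCherry+ cells and 68.3 in EGFP+ cells. The genes tyrp1b, dct, tyr and kita were highest in double-negative cells, whereas mitfa was highest in mCherry+ cells. For gch2 the mCherry+ value was the highest as deposited and the double-negative value was the highest under either scaling tried, by the median ratio of genes or to 1 FPKM sum for all libraries. As a share of the 6-gene sum, tyrp1b held 49.7% in double-negative cells and 54.5% in EGFP+ cells but 22.8% in mCherry+ cells. In mCherry+ cells gch2 held the largest share of the sum, 58.1%, against 28.1% in double-negative and 20.8% in EGFP+ cells. In such bulk libraries, fewer cells of a type and less RNA per cell cannot be told apart.

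**Figure D1:**
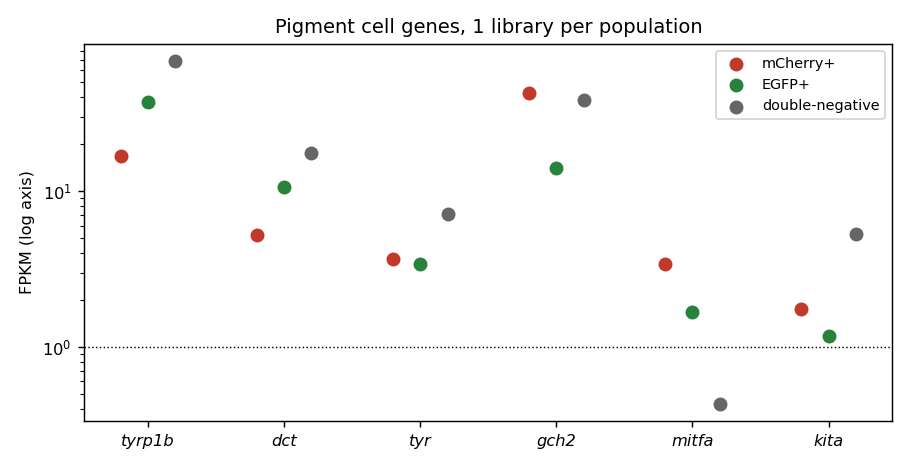
FPKM (log axis) of the 6 pigment cell genes in the mCherry+, EGFP+ and double-negative libraries, 1 point per library, with a dotted line at an FPKM of 1. The double-negative point is the highest for tyrp1b, dct, tyr and kita and the lowest for mitfa, at 0.431 FPKM.

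Among the melanin enzymes, tyrp1b had the highest level. It was at 68.4 FPKM in double-negative cells, 37.2 in EGFP+ cells and 16.9 in mCherry+ cells. In double-negative cells 95.2% of all genes in the table had a lower level, and in mCherry+ cells 74.3% did. The melanin enzyme gene tyrp1b thus stood high in the unlabelled cells and in the upper part of the range in both reporter libraries. Its mCherry+ level was 24.7% of the double-negative level and its EGFP+ level was 54.4% of it.

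Dopachrome tautomerase, which converts the melanin intermediate dopachrome, showed the same order of libraries. Its gene dct was at 17.5 FPKM in double-negative cells, 10.6 in EGFP+ cells and 5.26 in mCherry+ cells. The mCherry+ level was 30.05% and the EGFP+ level 60.4% of the double-negative level. Tyrosinase carries out the first and rate-limiting step of melanin synthesis, and its gene tyr was at 7.19 FPKM in double-negative cells, 3.42 in EGFP+ cells and 3.68 in mCherry+ cells. The double-negative level of tyr was the highest, and the reporter libraries were close to each other.

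Ratios between genes within a library do not depend on how libraries are scaled. The level of tyrp1b was 3.91 times that of dct in double-negative cells, 3.52 times in EGFP+ cells and 3.21 times in mCherry+ cells. The tyrp1b and dct transcripts thus kept a similar proportion in all 3 libraries while their levels differed. Relative to tyr, tyrp1b was 9.52 times as high in double-negative cells, 10.9 times in EGFP+ cells and 4.59 times in mCherry+ cells. The proportion of tyr to the other melanin enzymes was thus higher in the mCherry+ library, where tyr itself was at 3.68 FPKM.

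The pteridine gene gch2 showed another order. It was at 43.0 FPKM in mCherry+ cells, 38.7 in double-negative cells and 14.2 in EGFP+ cells. Its level in macrophage reporter cells was close to that in double-negative cells, and its level in neutrophil reporter cells was 36.6% of the double-negative level. Relative to tyrp1b in the same library, gch2 was 2.54 times as high in mCherry+ cells, 0.381 times in EGFP+ cells and 0.566 times in double-negative cells.

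The regulator mitfa had its lowest level where the melanin enzymes had their highest. It was at 3.38 FPKM in mCherry+ cells, 1.67 in EGFP+ cells and 0.431 in double-negative cells. No more than 44.8% of genes in the table were below mitfa in any library, so it was a low-level transcript throughout. The Kit receptor gene kita was also low, at 5.30 FPKM in double-negative cells, 1.76 in mCherry+ cells and 1.18 in EGFP+ cells. Both reporter libraries were below the double-negative library for kita and above it for mitfa.

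Setting mCherry+ against double-negative cells asks which pigment transcripts differed between macrophage reporter cells and unlabelled cells. Differences were measured as log2 ratios of FPKM + 1, over the 12285 genes that reached an FPKM of 1 somewhere among the libraries. All 6 genes passed this filter. With 1 library a group, a ratio past 4-fold served as the call, and 0 of 6 genes were at least 4-fold lower, against 7.36% of all tested genes. No pigment gene of the 6 was at least 4-fold higher, where 8.18% of tested genes were. At a 2-fold threshold, tyrp1b, dct and kita were lower and mitfa was higher, where 24.1% of tested genes were lower and 19.9% higher.

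The log2 ratio of tyrp1b was −1.96, just inside the 4-fold limit, and −2.02 without the added 1, just past it. On FPKM + 1, scaling the libraries by their median ratio moved it to −2.32, and giving all libraries 1 FPKM sum moved it to −2.62. Both were past the limit, as were 1391 and 1884 of the 12285 tested genes on the lower side. The ratios of dct, kita and tyr were −1.56, −1.19 and −0.81, and all of them stayed negative under both scalings, with dct past the 4-fold limit at −2.20 when all libraries had 1 FPKM sum. For scale, the log2 ratio of FPKM over 55 housekeeping genes had a median of 0.54 and an SD of 0.68 in this pair. The ratio of gch2 was 0.15, smaller than that scatter, and it became −0.22 and −0.52 under the 2 scalings, so no direction is given for it.

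For mitfa the log2 ratio was 1.61, with 88.9% of tested genes below it. Since the double-negative value of 0.431 FPKM lay under the pseudocount, this ratio depended on it and was 2.71 with a pseudocount of 0.1 and 0.63 with a pseudocount of 5. It stayed positive under both scalings, at 1.46 and 1.35. All 16 measured macrophage markers were at least 4-fold higher in mCherry+ cells, where 8.18% of tested genes were. These markers were chosen with earlier results of these data known, so their count is not independent of the values. The part of macrophages in the mitfa value was not tested.

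Neutrophil reporter cells were then compared with the unlabelled cells, using the same double-negative library. Here too 0 of 6 genes were at least 4-fold lower, where 5.38% of tested genes were, and 0 of 6 at least 4-fold higher, where 8.53% were. At 2-fold, gch2 and kita were lower, against 25% of tested genes, and no member was higher, against 21.2%. The log2 ratios were −1.53 for kita and −1.39 for gch2, and −0.89, −0.86 and −0.68 for tyr, tyrp1b and dct. The ratio of mitfa was 0.90. Over 55 housekeeping genes the SD was 1.01 and the median log2 ratio 0.66 in this pair. The SD and median were taken on FPKM without the added 1. On FPKM + 1 the ratios of the 3 melanin enzymes and of mitfa were smaller in size than that SD. Without the added 1 the ratios of tyr and mitfa were larger, −1.07 and 1.95, and those of tyrp1b and dct smaller, −0.88 and −0.73. Measured from the housekeeping median, the 3 enzymes were more than 1 SD lower either way. From that median mitfa was within 1 SD on FPKM + 1 and more than 1 SD higher without the added 1. On FPKM + 1, scaling by the median ratio moved tyr, tyrp1b and dct to −1.29, −1.33 and −1.12, and mitfa to 0.69. At 1 FPKM sum they were at −1.70, −1.81 and −1.58, and mitfa at 0.47. With all libraries at 1 FPKM sum, kita and gch2 passed the 4-fold limit at −2.24 and −2.31, where 2225 of the 12285 tested genes were lower. With 0.1 added in place of 1, kita passed it at −2.08, where 1659 genes were lower.

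The mCherry+ and EGFP+ libraries were also compared with each other. No member passed 4-fold, where 3.9% of tested genes were higher and 3.34% lower in mCherry+ cells. At 2-fold, gch2 was higher in mCherry+ cells, where 12% of tested genes were, and tyrp1b was lower, where 13.3% were. The log2 ratio of gch2 was 1.53, with 93.6% of tested genes below it, and it was 1.63 and 1.80 under the 2 scalings. The ratio of tyrp1b was −1.10 and became −0.99 and −0.82 under the scalings, inside the 2-fold limit. The ratio of dct was −0.89, that of mitfa 0.71 and that of kita 0.34. The smallest ratio was that of tyr, 0.08, against a housekeeping SD of 0.89.

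**Figure D2:**
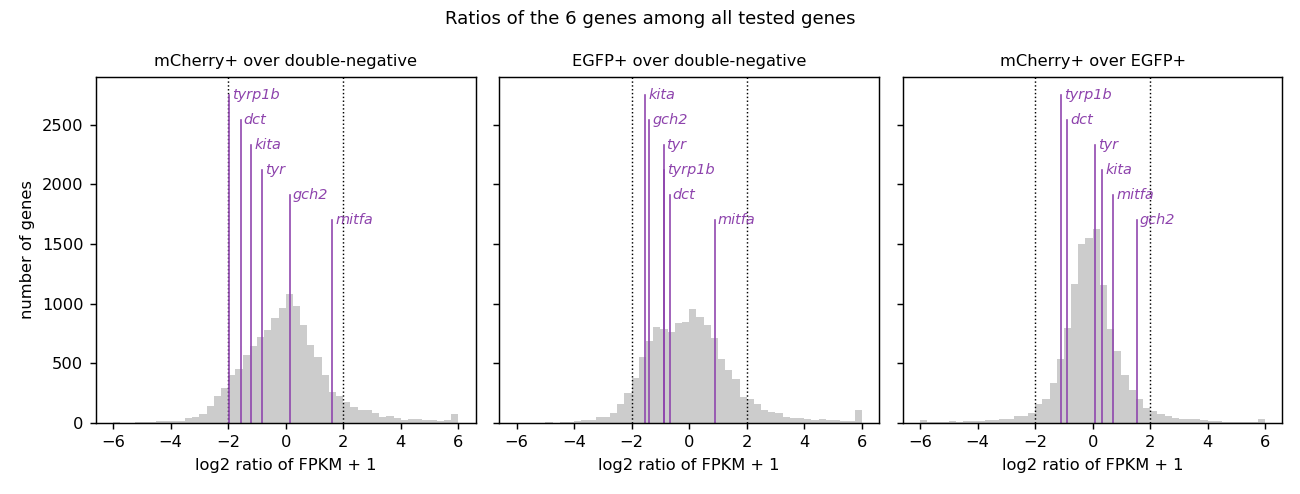
Number of tested genes by log2 ratio of FPKM + 1 for each pair of libraries (grey bars, 12285 genes, ratios beyond 6 in either direction placed in the end bars), with the 6 pigment cell genes as purple lines whose height has no meaning and dotted lines at 4-fold. All 6 genes lie inside the 4-fold limits in each pair, with tyrp1b nearest to a limit at −1.96.

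The other genes of melanin synthesis and the melanosome came from a list of 30, of which 18 were measured. In mCherry+ against double-negative cells, 2 of 18 were at least 4-fold higher and 0 lower, where 8.18% and 7.36% of tested genes were. The median log2 ratio was −0.90 against −0.04 over all tested genes. In EGFP+ cells 4 were higher and 1 lower, where 8.53% and 5.38% of tested genes were. The median was −0.47 against −0.05 over all tested genes. Under the scalings these counts became 2 higher and 2 lower by the median ratio, and 1 higher and 2 lower at 1 FPKM sum. Of the 12285 tested genes, 736 were higher and 1284 lower by the median ratio, and 548 and 2225 at 1 FPKM sum. The list medians became −0.84 and −1.23, against −0.44 and −0.84 over all tested genes. The list held 2 kinds of genes, a division made after their values were seen. All 10 genes of melanin enzymes, melanosome structure and pigment cell transport or signalling, including tyr, tyrp1b and dct, were below the double-negative level in both reporter libraries. Their medians were −1.44 in mCherry+ and −0.81 in EGFP+ cells. The ratios nearest to the double-negative level were −0.12 for gpr143 in mCherry+ cells and −0.09 for slc24a5 in EGFP+ cells. Since the 10 genes were set apart after their values were seen, their shared direction is not independent of those values. Of all tested genes, 21.4% had the descending order double-negative, EGFP+, mCherry+. A further 19.6% had the order double-negative, mCherry+, EGFP+, which also puts both reporter libraries below.

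The melanosome matrix gene pmela, whose product forms the fibrils on which melanin is laid down, was at 39.2 FPKM in double-negative cells, 22.9 in EGFP+ cells and 13.7 in mCherry+ cells. Its paralog pmelb was at 24.2, 14.0 and 8.56 FPKM in the same order. Both repeated the library order of tyrp1b and dct, which 8 of the 18 measured list genes had, tyrp1b and dct included, as deposited and under both scalings. Of all tested genes, 21.4% had that order as deposited, and 25.3% and 26.6% had it under the scalings. The melanosome receptor gene gpr143 was at 3.50 FPKM in double-negative cells and 3.15 in mCherry+ cells and was listed at 0 in EGFP+ cells.

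The other 8 measured genes encode trafficking factors of melanosomes and other lysosome-related organelles, which many cells use. Of these, 7 were above the double-negative level in mCherry+ cells and 6 in EGFP+ cells, and 5 in each with all libraries at 1 FPKM sum. As deposited, 22.3% and 16.1% of all tested genes had the orders with both reporter libraries above it. A further 10.3% had only mCherry+ above it and 10.4% only EGFP+. At 1 FPKM sum the all-gene medians were −0.62 and −0.84. The group was split off after its values were seen, so its counts are not independent of them. The small GTPase gene rab32a was at 39.3 FPKM in mCherry+ cells, 26.8 in EGFP+ cells and 3.16 in double-negative cells. The GTPase gene rab27a, which acts in granule and melanosome transport, was at 225 FPKM in EGFP+ cells, 42.4 in mCherry+ cells and 26.5 in double-negative cells. The Hermansky-Pudlak syndrome gene hps5 was at 22.8, 22.4 and 4.33 FPKM in mCherry+, EGFP+ and double-negative cells. These 3 genes were above the double-negative level in both reporter libraries, unlike the melanin enzymes, except that rab27a in mCherry+ cells was level with it (log2 ratio −0.0043) when all libraries had 1 FPKM sum.

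Since melanin enzymes are shared with the eye, a list of retinal pigment epithelium genes was read beside them. Its genes are not all particular to that layer, among them crx, bmp4 and rdh10a. Of 13 measured genes, 12 were below the double-negative level in each reporter library, with medians of −1.71 in mCherry+ and −0.87 in EGFP+ cells. Over all tested genes the medians were −0.04 and −0.05. The retinoid isomerase gene rpe65a was at 23.4 FPKM in double-negative cells, 11.04 in EGFP+ cells and 6.44 in mCherry+ cells. Of all tested genes 21.4% had the library order of tyrp1b and dct, which 9 of these 13 genes shared. Among them the transthyretin gene ttr was listed at 0 in mCherry+ cells. The summed level of the list was 189 FPKM in double-negative cells, 97.3 in EGFP+ cells and 70.9 in mCherry+ cells. Of these sums crx gave 36.1, 21.4 and 8.19 FPKM. The part of the retinal pigment epithelium in the levels of the melanin enzymes was not tested.

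**Figure D3:**
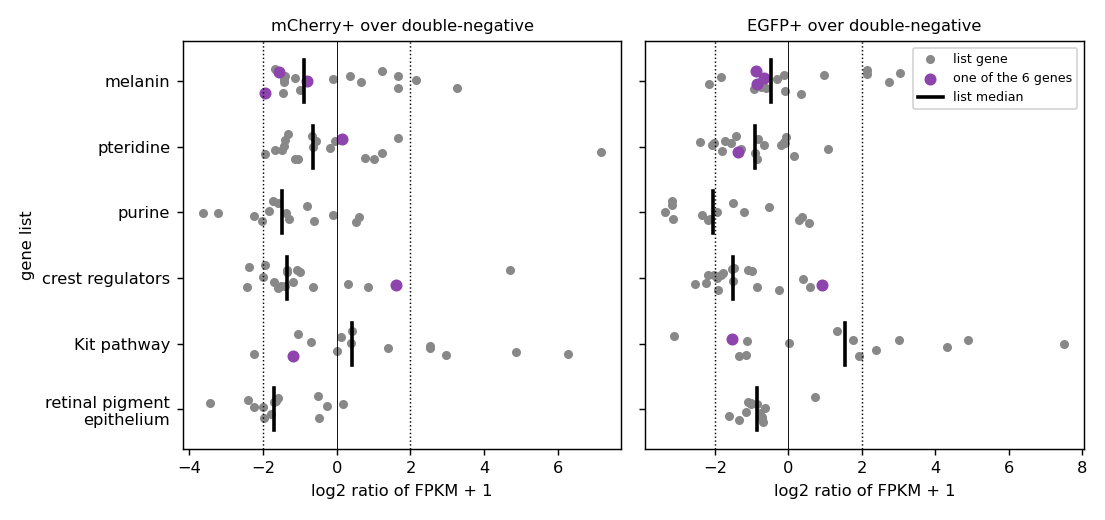
Log2 ratio of FPKM + 1 of each tested gene (points, the 6 pigment cell genes in purple) in 6 gene lists, for mCherry+ and EGFP+ cells over double-negative cells, with list medians as black bars and dotted lines at 4-fold. The retinal pigment epithelium medians were −1.71 and −0.87, and of these lists only the Kit pathway list had a positive median in both comparisons, at 0.40 and 1.54 (the former −0.19 with all libraries at 1 FPKM sum).

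Pteridine and xanthophore genes came from a list of 25, of which 22 were found and 19 passed the filter. In mCherry+ cells the median was −0.66 against −0.04 over all tested genes. There 1 of 19 was at least 4-fold higher and 0 lower, where 8.18% and 7.36% of tested genes were. The higher gene was csf1ra, the colony-stimulating factor receptor of both xanthophores and macrophages, at 263 FPKM in mCherry+, 1.01 in EGFP+ and 0.817 in double-negative cells. In EGFP+ cells the median was −0.91 against −0.05 over all tested genes. There 3 of 19 were at least 4-fold lower and 0 higher, where 5.38% and 8.53% of tested genes were. The xanthophore lineage regulator pax7b, one of these, was at 8.15 FPKM in double-negative cells, 1.39 in mCherry+ cells and 0.727 in EGFP+ cells. Its paralog pax7a was at 15.1, 4.04 and 3.83 FPKM in the same order. The regulators pax7a and pax7b were thus highest in double-negative cells.

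GTP cyclohydrolase also begins the synthesis of tetrahydrobiopterin, a cofactor that other cells use. Of 6 measured genes of that route, grouped after their values were seen, gch2, pts and pcbd1 were highest in mCherry+ cells (gch2 as deposited only) and the other 3 in double-negative cells. The next enzyme's gene, pts, was at 7.16 FPKM in mCherry+ cells, 2.28 in EGFP+ cells and 2.50 in double-negative cells. The dehydratase gene pcbd1, which recycles the cofactor, was at 117 FPKM in mCherry+ cells, 27.3 in EGFP+ cells and 68.1 in double-negative cells. Its log2 ratio in mCherry+ over double-negative cells was 0.77, and 0.40 and 0.10 under the scalings. The housekeeping SD in that pair was 0.68 and the median 0.54. That SD is a spread between genes and not the error of 1 gene, which 1 library per population cannot give. The lead of pcbd1 over double-negative cells is therefore uncertain. Between the reporter libraries the paralog gch1 went the other way from gch2, at 3.75 FPKM in mCherry+ cells, 11.02 in EGFP+ cells and 11.5 in double-negative cells. The level of gch2 was 11.5 times that of gch1 in mCherry+ cells, 1.29 times in EGFP+ cells and 3.36 times in double-negative cells.

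Neural crest and pigment cell regulators other than mitfa were mostly below the double-negative level. Of 17 genes without mitfa, 1 was at least 4-fold higher and 2 lower in mCherry+ cells, where 8.18% and 7.36% of tested genes were. In EGFP+ cells 0 were higher and 4 lower, where 8.53% and 5.38% of tested genes were. The medians were −1.36 and −1.55, against −0.04 and −0.05 over all tested genes. With all libraries at 1 FPKM sum, 8 and 11 were lower, as were 1884 and 2225 of the 12285 tested genes. The crest factor gene sox10, which activates mitfa, was at 7.12 FPKM in double-negative cells, 1.87 in mCherry+ cells and 1.78 in EGFP+ cells. The factor gene tfap2a, needed for melanophore development, was at 46.6, 8.15 and 9.32 FPKM in the same order. The gene pax3a, another regulator upstream of mitfa, was at 6.17 FPKM in double-negative cells, 0.801 in mCherry+ cells and 0.231 in EGFP+ cells. All 3 were lower in both reporter libraries, where mitfa was higher. Of the 17 regulators, 3 were above the double-negative level in mCherry+ cells and 2 in EGFP+ cells, and 2 and 0 at 1 FPKM sum. The regulator with the highest level, tfap2c, was above it in both as deposited. It was at 218 FPKM in mCherry+ cells, 181 in EGFP+ cells and 120 in double-negative cells. In EGFP+ cells the mitfa ratio was 0.90, and 0.69 and 0.47 under the scalings, all smaller than the housekeeping SD of 1.01. Without the added 1, as that SD was taken, the deposited mitfa ratio was 1.95 and larger than the SD.

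The 1 regulator at least 4-fold higher in mCherry+ cells was mitfb, the paralog of mitfa. It was at 48.6 FPKM there, 1.51 in EGFP+ cells and 0.911 in double-negative cells. In mCherry+ cells mitfa stood at 0.0696 times the level of mitfb, against 1.11 times in EGFP+ cells and 0.473 times in double-negative cells. How the quantification divided reads between such paralogs is not given in the sources used here, so the low mitfa level beside a high mitfb level is uncertain. Other genes of the MiT/TFE family, which control lysosome genes in many cells, were looked up after these values were seen. The gene tfeb was at 20.5 FPKM in mCherry+ cells, 1.95 in EGFP+ cells and 0.538 in double-negative cells. The gene tfe3a was at 67.8, 19.5 and 12.5 FPKM in the same order. The family genes mitfa, mitfb, tfeb and tfe3a were thus highest in mCherry+ cells. In EGFP+ cells mitfb and tfe3a were above the double-negative level as deposited but below it with all libraries at 1 FPKM sum. The gene tfe3b was at 41.3 FPKM in EGFP+ cells, 36.1 in mCherry+ cells and 4.55 in double-negative cells. The iridophore regulator tfec was listed at 0 in every library.

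**Figure D4:**
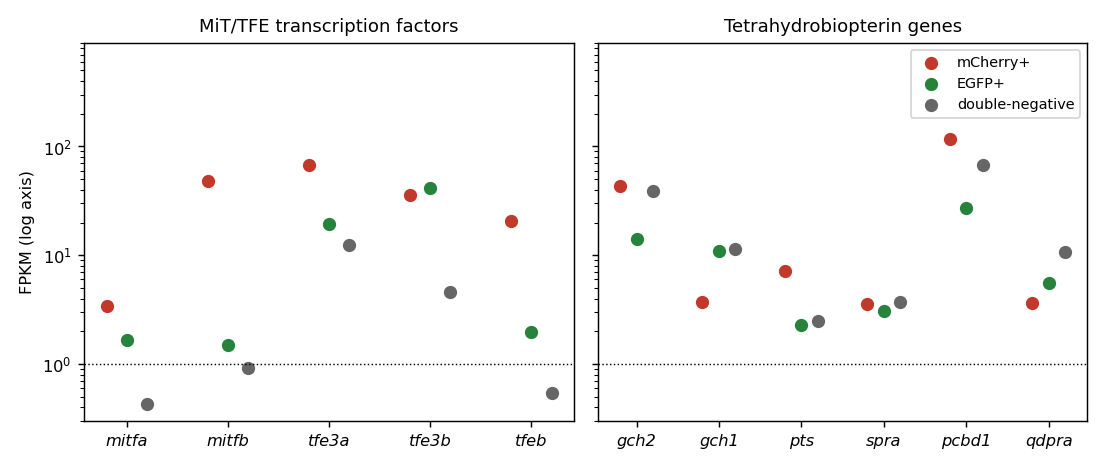
FPKM (log axis) of MiT/TFE transcription factor genes and of tetrahydrobiopterin genes in the 3 libraries, 1 point per library, with a dotted line at an FPKM of 1. The genes mitfa, mitfb, tfe3a and tfeb are highest in mCherry+ cells, as they are under both scalings, and gch2 and gch1 differ in their order.

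Iridophores, the remaining pigment cell class, served as a comparison through genes of purine synthesis and iridophore identity. The purine synthesis genes are used by other cells too. Of 14 tested genes, 4 were at least 4-fold lower in mCherry+ cells and 7 in EGFP+ cells, where 7.36% and 5.38% of tested genes were. None was higher, where 8.18% and 8.53% were. The medians were −1.48 and −2.05, against −0.04 and −0.05 over all tested genes. The iridophore marker pnp4a, a purine nucleoside phosphorylase gene, was at 61.4 FPKM in double-negative cells, 4.02 in mCherry+ cells and 6.05 in EGFP+ cells. Its double-negative level was near that of tyrp1b, at 68.4 FPKM, but the tyrp1b levels in the reporter libraries, 16.9 and 37.2 FPKM, were higher than those of pnp4a. The purine synthesis gene atic was at 28.5, 5.17 and 4.71 FPKM in double-negative, mCherry+ and EGFP+ cells. As deposited, 2 of the 14 genes were above the double-negative level in mCherry+ cells and 3 in EGFP+ cells. With all libraries at 1 FPKM sum, 0 were in either. Among the genes above it was gmps, at 35.3, 51.3 and 53.0 FPKM in the order given for atic.

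The Kit route was read from ligands to receptors to signalling genes. The ligand gene kitlga was at 40.6 FPKM in mCherry+ cells, 13.3 in EGFP+ cells and 30.7 in double-negative cells. The second ligand gene, kitlgb, was at 7.62 FPKM in double-negative cells and 0.803 in mCherry+ cells and was listed at 0 in EGFP+ cells. With all libraries at 1 FPKM sum the log2 ratio of kitlga in mCherry+ over double-negative cells went from 0.39 to −0.27, so no direction is given for that pair. The receptor paralog kitb was at 2.42 FPKM in double-negative cells, 0.639 in mCherry+ cells and 0.562 in EGFP+ cells, and kita was 2.19, 2.76 and 2.10 times as high as kitb in the same libraries. Both receptor genes were thus highest in double-negative cells and kept a similar proportion.

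Of 14 measured genes of the Kit list, 5 were at least 4-fold higher and 1 lower in each reporter library. Of tested genes, 8.18% were higher and 7.36% lower in mCherry+ cells, and 8.53% and 5.38% in EGFP+ cells. The list medians were 0.40 in mCherry+ and 1.54 in EGFP+ cells. With all libraries at 1 FPKM sum the medians were −0.19 and 0.70, against −0.62 and −0.84 over all tested genes. In EGFP+ cells 4 list genes were then higher and 4 lower, as were 548 and 2225 of the 12285 tested genes. The phosphatase gene ptpn6, which restrains signalling in blood cells, was at 347 FPKM in EGFP+ cells, 148 in mCherry+ cells and 0.916 in double-negative cells. The Src-family kinase gene lyn was at 71.2, 69.6 and 1.41 FPKM in the same order. These genes also act downstream of many leukocyte receptors. Kit marks mast cells and blood progenitors in mammals, so their markers were read beside kita. The mast cell carboxypeptidase gene cpa5 was at 1557 FPKM in EGFP+ cells, 5.19 in mCherry+ cells and 17.4 in double-negative cells. The EGFP+ library thus held the highest cpa5 level and the lowest kita level, 1.18 FPKM. The 4 measured mast cell markers summed to 1988 FPKM in EGFP+ cells, 7.85 in mCherry+ cells and 21.7 in double-negative cells, where il4 was listed at 0. The EGFP+ sum was nearly all cpa5 and il4, at 430 FPKM there, whereas gata2a was at 0.922 in EGFP+ and 4.01 in double-negative cells and hdc was at 0.264 or less in every library. The 13 measured progenitor markers summed to 602 FPKM in EGFP+ cells, 369 in mCherry+ cells and 93.2 in double-negative cells, with 4, 4 and 1 of them listed at 0. Most of the sums in the reporter libraries came from the myeloid factor genes spi1b, at 391 FPKM in EGFP+ and 192 in mCherry+ cells, and cebpa, at 99.0 and 138. The stem cell factor gene meis1 went the other way, at 52.8 FPKM in double-negative cells, 16.5 in mCherry+ cells and 13.5 in EGFP+ cells. The progenitor gene cmyb was at 17.7 FPKM in EGFP+ cells, 4.23 in mCherry+ cells and 7.39 in double-negative cells. The part of these cells in the kita levels was not tested.

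The genes with the most similar levels were found by Euclidean distance of log2(FPKM + 1) over the 3 libraries, which are only 3 points. Nearest to tyrp1b were the green cone opsin gene opn1mw1, and3 and the collagen gene col18a1, at distances of 0.36, 0.37 and 0.40. The nearest gene to dct was tead1a at 0.06, followed by tp63 and rab3aa. For gch2 they were gmfb, ddit4 and nrp1a, at distances of 0.12 to 0.15, and for mitfa dpy19l1l, nppcl and fgf1a, at 0.10 to 0.22. The genes mat2ab, atpaf1 and ptpn13 were nearest to tyr, and lrrc17, pter and socs2 to kita. The tyrp1b neighbour opn1mw1 was at 74.3 FPKM in double-negative cells, 46.4 in EGFP+ cells and 15.2 in mCherry+ cells.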

How the data were processed

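The tools TopHat2 2.0.11, Cufflinks 2.2.1 and cutadapt, and the build danRer7, are named by the submitters' processing notes, while settings and annotation are not given in the sources read. Per the labels' protocols, each library was made from 50 ng of total RNA by depletion of ribosomal RNA and a SMARTer low-input kit. The authors deposited 1 table of FPKM per gene and library. No step of whole reads was seen: among 219 to 329 genes under an FPKM of 0.5 in both libraries of a pair, the most common ratio (within 1%) held 3.28% or fewer, so depth is unknown and no counting interval is given.

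Ratios were log2(FPKM + 1) on values as deposited, with Python 3.11.15 and pandas 2.3.3. The median-ratio scaling was checked only on a small made-up table whose libraries were exact multiples of each other, so that outcome was fixed in advance. The 4-fold call was checked on simulated data. The planted changes were well past 4-fold, in genes with a mean FPKM of 10 or more. Differences inside 4-fold, as all members had on FPKM + 1, and lower levels were not covered. Alternatives were pseudocounts of 0.1 and 5, no filter, a minimum FPKM of 10, scaling by the median ratio of 5361 genes at an FPKM of 5 or above in each library, scaling to 1 FPKM sum, and 2-fold and 8-fold thresholds. Of 248 list entries 206 were found, 12 by an older symbol of assembly GRCz12tu, used for names only. Members and lists were chosen with earlier results of these data known. Named genes were the 6 members, list genes (those past 4-fold with an FPKM of 5 or more first) and the 3 nearest genes per member; other genes named were chosen after their values were seen. No sequences are printed.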

Additional observations from a re-analysis of the deposited data

How the results depend on the processing

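The deposited FPKM are shares of a library, and scaling moved the median of all tested genes by −0.32 (median-ratio) and −0.58 (same FPKM sum) for mCherry+ over double-negative, by −0.40 and −0.80 for EGFP+ over double-negative, and by 0.08 and 0.20 for mCherry+ over EGFP+. No paired analysis was possible because each population had 1 library, and for the same reason no library could be left out. Of 72 single-gene ratios recomputed with another pseudocount or scaling, 70 stayed within 1 housekeeping SD of the reported value, and the other 2, both of mitfa in mCherry+ over double-negative, are in the report. Medians of the combined pigment lists stayed within that SD. The log2 ratios of the FPKM sums, 0.68, 0.97 and −0.29 in the order of the pairs above, bound the shift from scaling. They lay near or within the housekeeping SDs of 0.68, 1.01 and 0.89. Scaling could therefore hardly move a ratio past 1 SD, so these counts do not measure stability under scaling. The 70 include gch2 in mCherry+ over double-negative cells, which changed sign from 0.15 to −0.22 and −0.52. The list genes at least 4-fold lower in mCherry+ than in double-negative cells went from 0 to 1 and 5 (melanin), 0 to 2 and 5 (pteridine), 4 to 6 and 8 (purine), 2 to 5 and 8 (regulators) and 4 to 7 and 9 (retinal) under the 2 scalings, and in EGFP+ cells, in the same order, from 1 to 2 and 2, 3 to 5 and 9, 7 to 8 and 10, 4 to 8 and 11, and 0 to 1 and 3. For mCherry+ over double-negative, the members past the limit went from 0 to 1 higher and 1 lower with a pseudocount of 0.1, to 1 lower after median-ratio scaling, to 2 lower with the same FPKM sum, and to 1 higher and 3 lower at 2-fold. For EGFP+ over double-negative they went from 0 to 1 lower with a pseudocount of 0.1, 2 lower with the same FPKM sum and 2 lower at 2-fold. For mCherry+ over EGFP+ they went from 0 to 1 higher and 1 lower at 2-fold.

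Counts over all genes moved more. For mCherry+ over double-negative, 1005 higher genes became 651 with a pseudocount of 5, 669 with the same FPKM sum, 2445 at 2-fold and 480 at 8-fold. The 904 lower genes became 1951 and 212 with pseudocounts of 0.1 and 5, 600 with a minimum FPKM of 10, 1391 and 1884 under the 2 scalings, and 2959 and 172 at 2-fold and 8-fold. For EGFP+ over double-negative, 1048 higher genes became 683 with a pseudocount of 5, 548 with the same FPKM sum, 2609 at 2-fold and 486 at 8-fold. The 661 lower genes became 1659 and 136 with pseudocounts of 0.1 and 5, 433 with a minimum FPKM of 10, 1284 and 2225 under the scalings, and 3072 and 123 at 2-fold and 8-fold. For mCherry+ over EGFP+, 479 higher genes became 898 and 281 with pseudocounts of 0.1 and 5, and 1473 and 217 at 2-fold and 8-fold, and 410 lower genes became 824, 222, 1637 and 178. The share of calls that were higher, 52.6% and 61.3% in the first and second pair, was 36.3% and 36.4% after median-ratio scaling and 26.2% and 19.8% with the same FPKM sum. Beyond the construction of each setting, the cause was not tested.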
